A study of Homo sapiens with 12 samples.

Results

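The subject is a group of 5 genes of cardiac pacemaker biology, 3 ion channels (HCN4, CACNA1G and CACNA1H) and 2 transcription factors (ISL1 and TBX3), chosen by symbol out of 17096 listed genes. All 5 were found and above 0 in all 12 libraries. The libraries come from H7, a human embryonic stem cell line, in directed differentiation into cardiomyocytes. They fall into 6 groups of 2 libraries: cells labelled E2A knockout (E2A-/-) and wild-type cells, each at day 3 (labelled cardiac mesoderm), day 7 and day 15 (labelled cardiomyocytes). The E2A locus carries the symbol TCF3 in the files, and its product is an E protein, a DNA-binding partner of tissue-specific basic helix-loop-helix factors. No treatment other than the differentiation is named for any group, and the labels give neither the site of the edit nor the number of knockout clones. The values were taken to be FPKM, fragment counts scaled by gene length and by library size, a unit read from the values and not stated in the labels; on that reading levels can be set beside each other across genes.

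The heartbeat starts in the sinoatrial node, whose cells depolarise on their own between beats. HCN4 is the main channel of the hyperpolarisation-activated "funny" current, which opens as the cell repolarises and drives the next depolarisation. CACNA1G and CACNA1H encode the pores of the T-type calcium channels Cav3.1 and Cav3.2, which open at negative voltages and add to that depolarisation. ISL1 is a LIM homeobox factor of second heart field progenitors and of node cells. TBX3 is a T-box repressor that, in mouse, keeps node cells from taking on the programme of the contracting chambers. Early cardiomyocytes also beat on their own, and genes of this group are active outside the heart too, ISL1 for example in motor neurons.

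E proteins bind the E-box, CANNTG on either strand, so the sequence near the start of a member of each class is shown where one was given. RefSeq's promoter table (GRCh38.p14; 250 bases before to 50 after a gene's start) matched 2 of the 5 members, ISL1 and HCN4. E-boxes are in capitals, and the stretches are chr5:51383198-51383390 (plus strand) for ISL1, upstream of its start in RefSeq and in GENCODE 29, and chr15:73369156-73369185 (minus strand) for HCN4.
ISL1: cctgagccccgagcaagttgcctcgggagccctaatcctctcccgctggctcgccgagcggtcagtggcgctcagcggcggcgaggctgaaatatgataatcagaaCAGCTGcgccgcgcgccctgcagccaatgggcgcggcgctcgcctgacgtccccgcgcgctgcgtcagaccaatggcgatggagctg
HCN4: atggggaattcgCAACTGaagccggagctt
Each 300-base window held 1 CANNTG match, CAGCTG at 144 bases before the RefSeq start of ISL1 and CAACTG at 215 bases before that of HCN4. GENCODE 29 places the start of HCN4 306 bases further upstream. Of 35116 promoter windows of this length, 68.7% hold a CANNTG match and 17.9% hold CAGCTG, with matches allowed to overlap. These matches are descriptions of the letters, and binding was not measured.

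TCF3 was read first, as the targeted gene. It stood at 145.9 and 148.1 FPKM in the libraries labelled knockout at day 3, against 179.5 and 148.9 FPKM in wild type, with a log2 change of -0.15 (adjusted p = 0.618 with limma). The changes of 0.36 at day 7 (adjusted p = 0.159) and 0.66 at day 15 (adjusted p = 0.0234) were upward, and the call at day 15 was lost without replicate 1 of either genotype (0.34 to 0.98 over all 13 alternatives, adjusted p up to 0.167). As the mRNA of the targeted gene was not lower beyond the replicate spread at any day, every direction below rests on the labels, and the libraries are called labelled knockout. Replicate libraries had an r of 0.973 to 0.990 over all genes. The share of summed FPKM from mitochondrially encoded genes ran over the 12 libraries from 8.14% to 26.2%, and it moved with genotype, at 20.2% and 18.5% in the labelled knockout against 8.55% and 8.14% in wild type at day 7 and 13.9% and 14.3% in the labelled knockout against 26.1% and 26.2% in wild type at day 15. Its part in the results was not tested, but scaling to the other genes turned no genotype change of a member round. Of 9 measured cardiomyocyte markers, which summed to 12.4 to 15.9 FPKM per library at day 3, 8 were lower in the labelled knockout at day 7. Their sums were then 1474 and 1352 FPKM in the labelled knockout against 7971 and 8066 FPKM in wild type. At day 15 these sums were 4597 and 3881 FPKM in the labelled knockout against 10988 and 11964 FPKM in wild type, with 6 markers lower and 1 higher. Over all genes, 19.9% were lower at day 7, and 16.2% were lower and 18.9% higher at day 15. In these bulk samples fewer cells of a type and less RNA per cell cannot be told apart. No source says whether the 2 libraries of a group are separate cultures, so a p-value here covers the spread of these libraries alone, which may be technical.

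The 2 factors were lower in the labelled knockout at all 3 days, while the 2 T-type channel genes were higher or did not pass, and HCN4 changed sides. Each change below is a difference of mean log2(FPKM + 1), labelled knockout less wild type, given with its limma SE and a p adjusted over the 16295 genes tested. At day 3, 5 of 5 members passed the threshold of 0.05 in a comparison where 23.6% of all genes did, 9.51% higher and 14.1% lower. At day 7, 5 of 5 passed against a background of 42.0% (22.1% higher, 19.9% lower), and at day 15, 4 of 5 passed against 35.1% (18.9% higher, 16.2% lower). The 5 members were chosen with earlier results of these data known, so these counts are a description. Where genotypes are said below not to overlap, this describes 2 libraries against 2. The share of all genes without overlap was not counted.

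**Figure D1:**
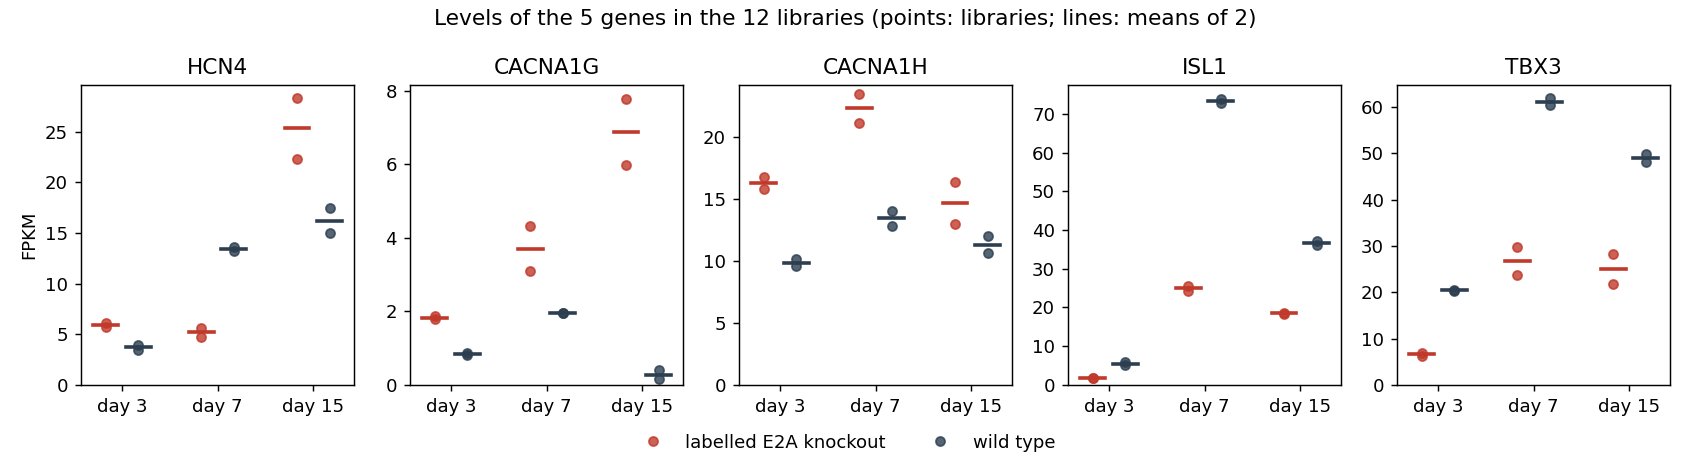
FPKM of the 5 genes in each of the 12 libraries (points) with the mean of each group of 2 (lines), by day, labelled E2A knockout left of wild type. ISL1 and TBX3 lie lower in the labelled knockout at each day, and HCN4 lies higher at days 3 and 15 and lower at day 7.

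ISL1 (GRCh38 chromosome 5, 51383391 to 51394738, plus strand) is the member with the widest range over the course. At day 3 its level was 1.75 and 1.66 FPKM in the labelled knockout, against 5.82 and 5.04 FPKM in wild type. On day 7 it was at 25.6 and 24.2 FPKM in the labelled knockout, against 72.9 and 73.9 FPKM in wild type. At day 15 they were 18.4 and 18.6 FPKM in the labelled knockout, against 37.1 and 36.0 FPKM in wild type. The genotypes did not overlap at any day. ISL1 fell by 1.25 at day 3 (SE 0.12, adjusted p = 9.35e-05 with limma), by 1.52 at day 7 (SE 0.12, adjusted p = 1.18e-05) and by 0.94 at day 15 (SE 0.12, adjusted p = 2.73e-04). Each of these calls held in all 13 alternatives run on it. Both genotypes shared the shape of the course, with the highest level at day 7. The rise between day 3 and day 7 was 3.26 in the labelled knockout (SE 0.12, adjusted p = 4.05e-08) and 3.54 in wild type (SE 0.12, adjusted p = 7.47e-09). These rises differed by -0.27, labelled knockout minus wild type (SE 0.17, adjusted p = 0.285), which did not pass.

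After day 7 ISL1 fell by 0.41 in the labelled knockout (SE 0.12, adjusted p = 0.0282 with limma) and by 0.99 in wild type (SE 0.12, adjusted p = 8.79e-05). The difference of 0.58 between these falls passed (SE 0.17, adjusted p = 0.0258). The fall in the labelled knockout did not pass without any 1 of the 4 libraries it uses (adjusted p from 0.0540 to 0.132), in a fit on those groups alone (0.172) or with equal library sums (0.0520). The difference of the falls did not pass without either wild-type library of day 7 or day 15 (0.0549 to 0.0865), without replicate 2 of the labelled knockout at day 7 (0.0787), or when scaled to genes not mitochondrially encoded (0.104). In order of level the wild-type groups of days 7 and 15 came first (73.4 ± 0.663 and 36.5 ± 0.751 FPKM, mean ± SD, n = 2), then the labelled knockout groups of the same days (24.9 ± 1 and 18.5 ± 0.15). Day 3 came last in both genotypes, and no neighbours in this order overlapped.

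TBX3 (chromosome 12, 114670254 to 114684164, minus strand) followed the same order of groups as ISL1 but was already at several FPKM at day 3. Its day 3 levels were 6.22 and 6.91 FPKM in the labelled knockout, against 20.6 and 20.3 FPKM in wild type. By day 7 the labelled knockout had 29.7 and 23.7 FPKM, against 60.3 and 61.9 FPKM in wild type. At day 15 the labelled knockout had 28.1 and 21.8 FPKM, against 49.8 and 48.1 FPKM in wild type. The genotypes were apart at every day. TBX3 fell by 1.51 at day 3 (SE 0.15, adjusted p = 1.06e-04 with limma), by 1.17 at day 7 (SE 0.15, adjusted p = 1.81e-04) and by 0.95 at day 15 (SE 0.15, adjusted p = 8.24e-04), calls that held in all 13 alternatives run on each.

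The genotype effects on TBX3 at neighbouring days differed by 0.33 (day 7 minus day 3, SE 0.21, adjusted p = 0.294 with limma) and by 0.22 (day 15 minus day 7, SE 0.21, adjusted p = 0.454), and neither passed. TBX3 rose between day 3 and day 7 by 1.87 in the labelled knockout (adjusted p = 9.01e-06) and by 1.53 in wild type (adjusted p = 1.72e-05). From day 7 to day 15 its change was -0.10 in the labelled knockout (adjusted p = 0.666), whose libraries of these days overlap, and -0.32 in wild type (adjusted p = 0.098), and neither passed. ISL1 stood below TBX3 per length at day 3, at a ratio of 0.281 and 0.240 in the labelled knockout and 0.283 and 0.248 in wild type. At day 7 the ratio of ISL1 to TBX3 was 0.862 and 1.02 in the labelled knockout, against 1.21 and 1.19 in wild type. At day 15 it was 0.654 and 0.853 in the labelled knockout against 0.745 and 0.749 in wild type, with the genotypes overlapping. In wild type ISL1 was the more abundant factor of the pair at day 7 and the less abundant at days 3 and 15. The summed endoderm markers were also lower in the labelled knockout at each day, and the summed mesoderm markers at days 3 and 7. The 5 measured endoderm and liver markers summed to 33.4 and 36.9 FPKM in the labelled knockout against 135 and 137 FPKM in wild type at day 3, with 3 lower. Their sums were 42.3 and 40.6 FPKM in the labelled knockout against 124 and 135 FPKM in wild type at day 7, with 4 lower, and 36.0 and 38.4 FPKM in the labelled knockout against 138 and 157 FPKM in wild type at day 15, with 3 lower. The 3 measured motor and sensory neuron markers, MNX1, POU4F1 and PRPH, had no common direction, with 1 lower at day 3 (median change 0.15), 2 lower and 1 higher at day 7 (median -0.63) and 1 lower at day 15 (median 0.18). POU4F1 stood at 3.30 FPKM in the labelled knockout against 0.598 FPKM in wild type at day 7 and at 0.546 FPKM in the labelled knockout against 12.3 FPKM in wild type at day 15. At day 3 the 5 measured primitive streak and mesoderm markers summed to 179 and 162 FPKM in the labelled knockout against 624 and 618 FPKM in wild type, with 4 lower. The part of these cell types in the levels of ISL1 and TBX3 was not tested.

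HCN4 (chromosome 15, 73319859 to 73369264, minus strand) was higher in the labelled knockout at day 3, lower at day 7 and higher again at day 15. Its day 3 level was 6.11 and 5.73 FPKM in the labelled knockout, against 3.96 and 3.47 FPKM in wild type. At day 7 the labelled knockout had 5.64 and 4.74 FPKM and wild type 13.2 and 13.6 FPKM. At day 15 the labelled knockout had 28.4 and 22.3 FPKM and wild type 14.98 and 17.5 FPKM. The genotypes did not overlap at any day, and the side changed at each step. The change was 0.55 at day 3 (SE 0.16, adjusted p = 0.0326 with limma), -1.22 at day 7 (SE 0.16, adjusted p = 2.62e-04) and 0.61 at day 15 (SE 0.16, adjusted p = 0.0155). The fall at day 7 held in all 13 alternatives run on it. The rise at day 3 did not pass when any 1 library of that day, of 4, was left out (0.48 to 0.63, adjusted p from 0.081 to 0.167) or in a fit on that day alone (0.0524). The rise at day 15 did not pass without replicate 1 of the labelled knockout (0.44, adjusted p = 0.0907), without replicate 1 of the wild type (0.50, 0.0976), or in a fit on that day alone (0.0644).

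Whether the genotype effect on HCN4 differed between days was tested directly. Such a test does not show on which side the effect lies at a given day. The genotype effect at day 7 differed from that at day 3 by -1.77 (SE 0.23, adjusted p = 7.09e-04 with limma), in a test that 20.2% of all genes passed (11.3% up, 8.90% down) and 1 of 5 members, HCN4 alone. The effect at day 15 differed from that at day 7 by 1.83 (SE 0.23, adjusted p = 3.68e-04), in a test that 31.7% of all genes passed (16.6% up, 15.2% down) and 3 of 5 members, HCN4, CACNA1G and ISL1. Both differences of HCN4 held in all 17 alternatives run on each, while its rises at days 3 and 15 did not hold in all of theirs. The courses of the 2 genotypes were as follows. In wild type HCN4 rose by 1.61 between day 3 and day 7 (SE 0.16, adjusted p = 2.41e-05), and its later change of 0.26 did not pass (adjusted p = 0.212). In the labelled knockout its change from day 3 to day 7 was -0.16 (adjusted p = 0.492), and it rose by 2.08 between day 7 and day 15 (SE 0.16, adjusted p = 1.75e-05). In order of level, the labelled knockout at day 15 (25.3 ± 4.27 FPKM, n = 2) stood above wild type at day 15 (16.2 ± 1.75) and at day 7 (13.4 ± 0.293). The labelled knockout at day 3 (5.92 ± 0.267) and day 7 (5.19 ± 0.636) and wild type at day 3 (3.72 ± 0.349) came below.

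**Figure D2:**
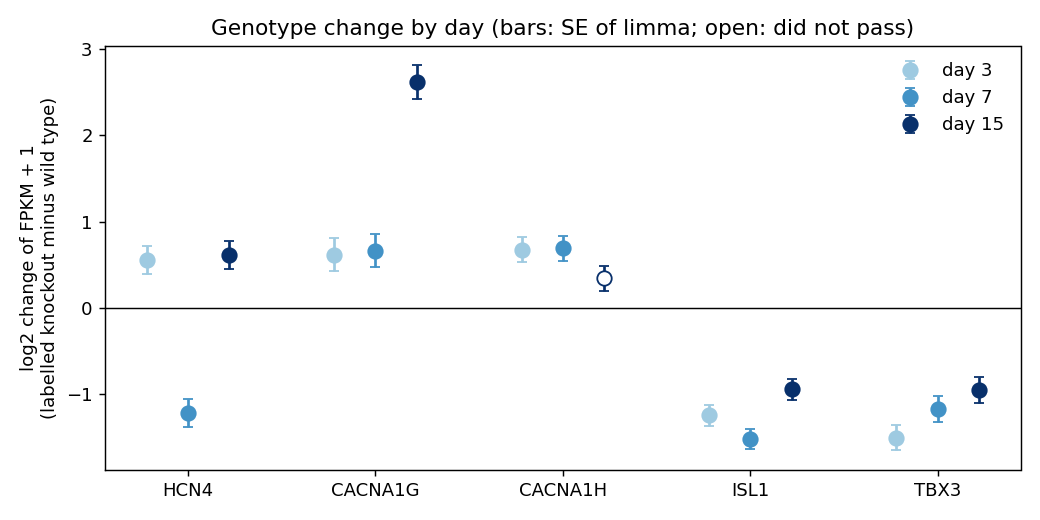
Log2 change of FPKM + 1, labelled E2A knockout minus wild type, for each gene at days 3, 7 and 15; bars are the SE of limma and the open point did not pass. The factors lie between -0.94 and -1.52 at all 3 days, HCN4 is at -1.22 at day 7 between rises at days 3 and 15, and CACNA1G reaches 2.62 at day 15.

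CACNA1G (chromosome 17, 50561068 to 50627474, plus strand), the gene of Cav3.1, was the least abundant of the 5 in 5 of the 6 groups, all but the labelled knockout at day 3. Day 3 levels were 1.87 and 1.79 FPKM in the labelled knockout, against 0.875 and 0.819 FPKM in wild type. By day 7 the labelled knockout had 4.31 and 3.10 FPKM, against 1.95 and 1.94 FPKM in wild type. At day 15 the labelled knockout had 7.77 and 5.99 FPKM, against 0.167 and 0.392 FPKM in wild type. The genotypes did not overlap at any day, and their courses parted after day 7. CACNA1G rose in the labelled knockout at day 15 by 2.62 (SE 0.19, adjusted p = 1.01e-05 with limma), the largest genotype change among the 5 genes, and this held in all 13 alternatives run on it. The means differ 24.6-fold, but the wild-type value is low, and at a pseudocount of 0.1 the change read 4.26.

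The earlier rises of CACNA1G were smaller, 0.62 at day 3 (SE 0.19, adjusted p = 0.0423 with limma) and 0.66 at day 7 (SE 0.19, adjusted p = 0.0188). The first did not pass without any 1 of the 4 libraries of day 3 (adjusted p from 0.117 to 0.159), at a pseudocount of 0.1 (0.0503) or in a fit on that day alone (0.0579). The second did not pass without either wild-type library (0.077 and 0.0794), without replicate 1 of the labelled knockout (0.139) or at a pseudocount of 0.1 (0.0599). From day 7 to day 15 CACNA1G fell by 1.21 in wild type (SE 0.19, adjusted p = 4.93e-04), a call that held in all 13 alternatives run on it. In the labelled knockout it rose by 0.75 (SE 0.19, adjusted p = 0.0162) over the same interval. That rise did not pass without replicate 2 of day 7 (0.112), without replicate 1 of day 15 (0.0757), at a pseudocount of 0.1 (0.0791) or in a fit on those groups alone (0.0892). The genotype effect at day 15 differed from that at day 7 by 1.96 (SE 0.27, adjusted p = 6.26e-04, in all 17 alternatives). Between days 3 and 7 CACNA1G rose by 0.72 in the labelled knockout (adjusted p = 0.018) and by 0.67 in wild type (adjusted p = 0.0162). Without any 1 of the 4 libraries it uses the wild-type rise did not pass (0.0613 to 0.0757), nor did that in the labelled knockout without either replicate of day 3 or replicate 1 of day 7 (0.0691 to 0.129). The 7 measured neural markers summed to 105 and 83.6 FPKM in the labelled knockout at day 15 against 130 and 130 FPKM in wild type. NCAM1 among them stood at 42.2 FPKM in the labelled knockout against 92.9 FPKM in wild type, and the median change of the 5 tested was 0.34. MAP2 was higher in the labelled knockout at each day, at 23.5 against 1.29 FPKM, 39.2 against 2.20 FPKM and 21.7 against 5.12 FPKM. The part of these markers in the result was not tested.

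CACNA1H (chromosome 16, 1153121 to 1221772, plus strand), the gene of Cav3.2, was the steadiest of the 5. Its levels at day 3 were 15.8 and 16.8 FPKM in the labelled knockout, against 10.1 and 9.58 FPKM in wild type. At day 7 the labelled knockout had 21.1 and 23.5 FPKM, against 12.8 and 14.03 FPKM in wild type. At day 15 the labelled knockout had 16.4 and 12.96 FPKM, against 10.6 and 12.03 FPKM in wild type. The labelled knockout libraries lay above those of wild type at each day. CACNA1H rose by 0.67 at day 3 (SE 0.15, adjusted p = 0.00849 with limma) and by 0.69 at day 7 (SE 0.15, adjusted p = 0.00391), while its change of 0.34 at day 15 did not pass (SE 0.15, adjusted p = 0.0955). The rise at day 3 did not pass without replicate 2 of wild type (0.0607) or of the labelled knockout (0.0515). At day 15 it passed without replicate 2 of the labelled knockout (0.50, adjusted p = 0.0308) and with equal library sums (0.55, adjusted p = 0.0119).

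Over the course CACNA1H changed by 0.43 between days 3 and 7 in the labelled knockout (adjusted p = 0.0515 with limma) and rose by 0.41 in wild type (adjusted p = 0.0431). The wild-type rise did not pass without any 1 of its 4 libraries (adjusted p from 0.0912 to 0.199) or with the replicate number as a block (0.0527). After day 7 CACNA1H fell by 0.58 in the labelled knockout (SE 0.15, adjusted p = 0.015), and its change of -0.23 in wild type did not pass (adjusted p = 0.212). That fall did not pass without replicate 2 of day 7 (0.088), without replicate 2 of day 15 (0.0782) or in a fit on those groups alone (0.105). In the order of levels, the labelled knockout at days 3 and 15 and wild type at day 7 overlap with their neighbours. Antisense or opposite-strand genes are annotated within HCN4, CACNA1G and CACNA1H, none within ISL1 or TBX3. No source used here gives the strand setting of the counting, so reads of those partners cannot be told apart.

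Over time, 5 of 5 members passed between days 3 and 7 in wild type, where 43.7% of all genes did (21.1% up, 22.6% down), and 3 of 5 in the labelled knockout, where 28.6% did (17.3% up, 11.4% down). Between days 7 and 15, 2 of 5 passed in wild type (background 52.3%, with 25.5% up and 26.8% down) and 4 of 5 in the labelled knockout (28.4%, with 13.3% up and 15.1% down). The steps that passed were thus of unlike make-up. In wild type the later step held the falls of ISL1 and CACNA1G, and in the labelled knockout it held the rises of HCN4 and CACNA1G and the falls of CACNA1H and ISL1.

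Set beside each other, the summed factors were lower in the labelled knockout at each day, while the summed channels were higher at days 3 and 15 and close at day 7, when HCN4 was lower along with both factors. The 3 channels summed to 23.8 and 24.3 FPKM in the labelled knockout at day 3, against 14.96 and 13.9 FPKM in wild type, and the factors to 7.96 and 8.57 FPKM in the labelled knockout against 26.4 and 25.4 FPKM in wild type. The ratio of summed factors to summed channels was therefore 0.335 and 0.353 in the labelled knockout and 1.76 and 1.83 in wild type. At day 7 this ratio was 1.78 and 1.53 in the labelled knockout against 4.77 and 4.59 in wild type. At day 15 it was 0.886 and 0.979 in the labelled knockout against 3.37 and 2.82 in wild type. The genotypes did not overlap at any day, and the labelled knockout at day 7 was close to wild type at day 3. A ratio within a library does not move with the scaling of that library. At day 7 the sums of the channels, 31.0 and 31.3 FPKM in the labelled knockout against 28.0 and 29.6 FPKM in wild type, were close, but their make-up was not. HCN4 took 18.2% and 15.1% of the channel sum in the labelled knockout, against 47.1% and 46.0% in wild type, and CACNA1H took 67.9% and 75.0% in the labelled knockout against 45.9% and 47.5% in wild type. At day 15 HCN4 took 54.0% and 54.1% in the labelled knockout and 58.2% and 58.4% in wild type, and CACNA1G 14.8% and 14.5% in the labelled knockout against 0.649% and 1.31% in wild type.

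**Figure D3:**
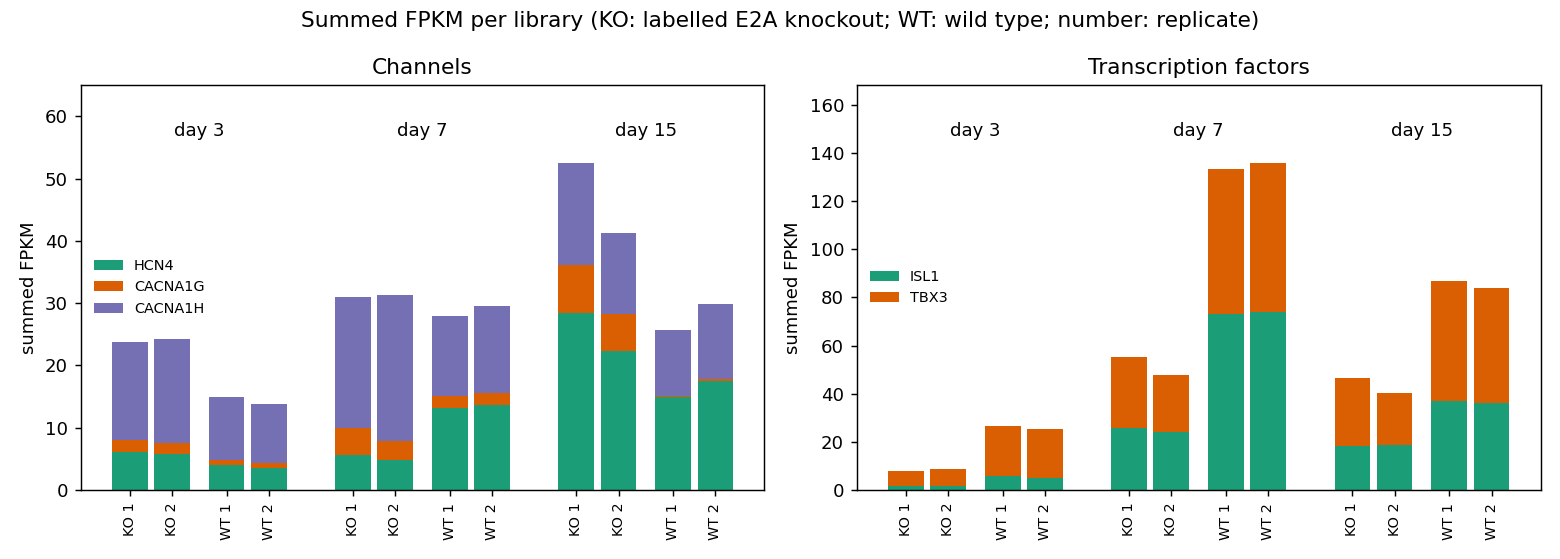
Summed FPKM of the 3 channel genes (left) and of the 2 factor genes (right) in each of the 12 libraries, labelled E2A knockout (KO) left of wild type (WT) at each day. The channel sums are 31.0 and 31.3 FPKM in KO and 28.0 and 29.6 FPKM in WT at day 7, with a smaller HCN4 part in KO, and CACNA1G takes 14.8% and 14.5% of the sum in KO against 0.649% and 1.31% in WT at day 15.

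As cardiomyocyte markers were lower in the labelled knockout at days 7 and 15, the members were also set against TNNT2, cardiac troponin T, within each library. TNNT2 stood at 209.5 FPKM in the labelled knockout against 831 FPKM in wild type at day 7 (means of 2) and at 902 FPKM in the labelled knockout against 1551 FPKM in wild type at day 15, and was near 0 at day 3 (0.878 FPKM in the labelled knockout, 0.508 FPKM in wild type), where no ratio is given. Per 1000 FPKM of TNNT2, HCN4 stood at 23.8 and 26.1 FPKM in the labelled knockout at day 7, against 16.3 and 15.9 FPKM in wild type. So HCN4, which was lower per library, was higher per TNNT2 at that day, though not against each marker, as given below. At day 15 this measure of HCN4 was 26.5 and 30.4 in the labelled knockout against 10.1 and 10.8 in wild type. For ISL1 it was 108 and 133 in the labelled knockout against 90.02 and 86.7 in wild type at day 7, and 17.2 and 25.3 in the labelled knockout against 25.1 and 22.2 in wild type at day 15, where the genotypes overlap. For TBX3 it was 125 and 130 in the labelled knockout against 74.5 and 72.7 in wild type at day 7, and 26.3 and 29.7 in the labelled knockout against 33.7 and 29.6 in wild type at day 15, again overlapping. Both factors, lower per library at day 7, were thus higher per TNNT2 at that day, but this depends on the marker, a check added after seeing the data. Set against each of the 9 measured cardiomyocyte markers at day 7, ISL1 was higher in the labelled knockout for 7 and lower for 2, TTN and RYR2. TBX3 and HCN4 were each higher for 7, lower for TTN and overlapping for RYR2. At day 15, ISL1 and TBX3 were each higher for 5 markers, lower for 3 and overlapping for 1, while HCN4 was higher for 9 of 9. For CACNA1H the measure was 88.8 and 129 in the labelled knockout against 15.8 and 16.5 in wild type at day 7, and for CACNA1G 18.2 and 17.1 in the labelled knockout against 2.41 and 2.28 in wild type. Where a marker is itself lower in the labelled knockout, any gene that fell by less is higher against it. The share of all genes for which this holds was not counted. These ratios take TNNT2 as 1 marker of many, are given without a test, and do not say which cells held the transcripts.

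**Figure D4:**
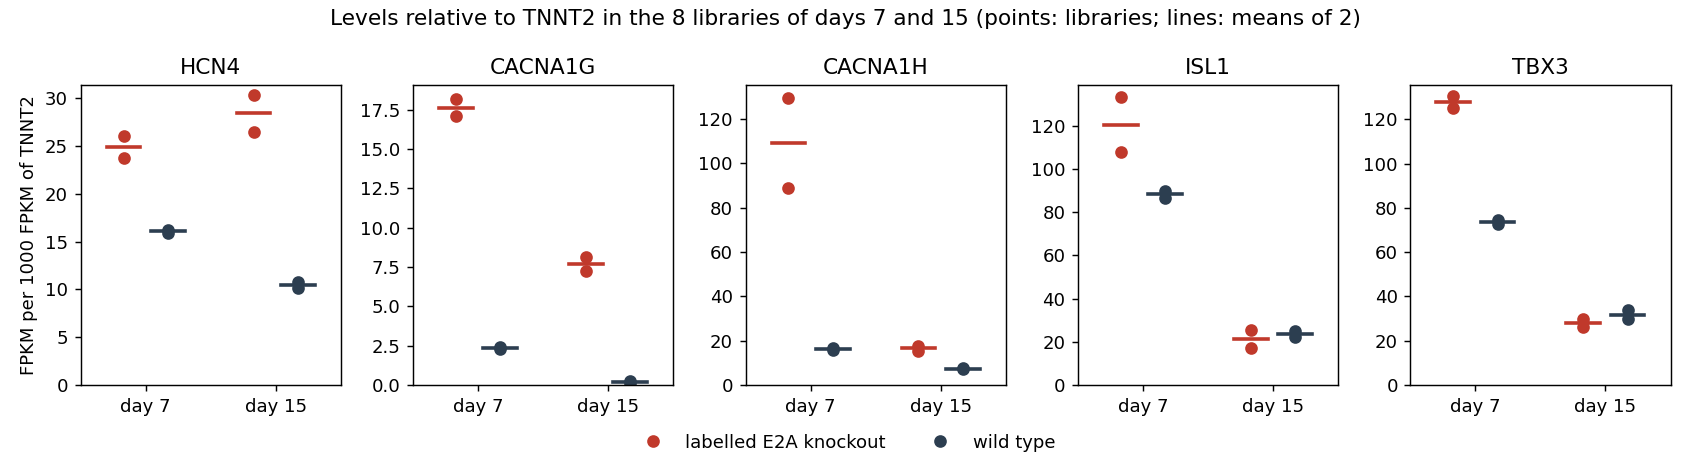
FPKM of each gene per 1000 FPKM of TNNT2 in the 8 libraries of days 7 and 15 (points) with the mean of each group of 2 (lines), labelled E2A knockout left of wild type. HCN4 lies higher in the labelled knockout at both days, and ISL1 and TBX3 lie higher at day 7 and overlap at day 15.

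Other genes of the node were examined next, from a list of 20 of which 16 were tested. At day 3, 1 rose and 1 fell (median change -0.15, against -0.01 over all genes), beside 9.51% and 14.1% of all genes. KCNJ5, a subunit of the acetylcholine-gated potassium channel that slows the node, was the one that fell, by 1.77 (6.19 FPKM in the labelled knockout, 23.6 FPKM in wild type). At day 7, 8 fell and 1 rose (median -0.61, against 0.06), beside 19.9% and 22.1% of all genes. Among those that fell was SLC8A1, the sodium-calcium exchanger, by 2.31 (13.6 FPKM in the labelled knockout, 70.7 FPKM in wild type). GJC1, connexin 45 of slowly conducting tissue, rose by 0.92 (93.3 FPKM in the labelled knockout, 48.5 FPKM in wild type). At day 15, 8 rose and 2 fell (median 0.72, against 0.03), beside 18.9% and 16.2% of all genes. TBX5, a T-box factor of node and chambers, rose by 2.70 (21.9 FPKM in the labelled knockout, 2.46 FPKM in wild type), ADCY1, an adenylyl cyclase, by 1.82 (6.95 FPKM in the labelled knockout, 1.25 FPKM in wild type), and CACNA1D, the pore of the low-voltage L-type channel Cav1.3, by 1.06 (16.8 FPKM in the labelled knockout, 7.53 FPKM in wild type). TBX2, the closest relative of TBX3, fell at day 7 by 1.496 (9.78 FPKM in the labelled knockout, 29.4 FPKM in wild type) and at day 15 by 1.00 (28.3 FPKM in the labelled knockout, 57.6 FPKM in wild type). The genotype effect at day 15 was above that at day 7 for 9 of the 16 genes and below it for 0, also at an unadjusted p under 0.05 with limma. Over all genes, 16.6% passed upward and 15.2% downward in that comparison. SHOX2, TBX18, CPNE5 and KCNE2 were not analysed here.

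The relatives of the channels gave no common direction. Of 19 HCN and calcium channel subunits fixed as a list, 15 were tested, with 3 higher and 2 lower at day 3, 5 higher and 3 lower at day 7, and 4 higher and 0 lower at day 15 (2 were lower there at an unadjusted p under 0.05 with limma). Their median changes of 0.11, 0.12 and 0.03 stand beside medians over all genes of -0.01, 0.06 and 0.03. The shares of all genes higher were 9.51%, 22.1% and 18.9% at days 3, 7 and 15. Those lower were 14.1%, 19.9% and 16.2%. CACNA1A, the pore of the neuronal P/Q-type channel, rose at all 3 days, by 2.32 (22.2 FPKM in the labelled knockout, 3.73 FPKM in wild type), 2.84 (48.0 FPKM in the labelled knockout, 5.92 FPKM in wild type) and 1.70 (21.6 FPKM in the labelled knockout, 6.01 FPKM in wild type). CACNA1C, the pore of the main cardiac L-type channel, fell at day 7 by 1.54 (2.98 FPKM in the labelled knockout, 10.6 FPKM in wild type), and its change of -0.30 at day 15 did not pass. CACNA1I, the third T-type pore, was low, at 1.05 FPKM in the labelled knockout against 2.15 FPKM in wild type at day 7 and 0.375 FPKM in the labelled knockout against 0.156 FPKM in wild type at day 15. HCN2 did not pass at any day.

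LIM homeobox and T-box relatives of the factors were 17 tested of 30 fixed, with 3 lower and 0 higher at day 3, 6 lower and 2 higher at day 7, and 3 lower and 7 higher at day 15 (medians of -0.14, -0.37 and 0.37, against -0.01, 0.06 and 0.03 over all genes). The 3 of 17 lower at day 3 stand beside 14.1% of all genes, the 6 lower at day 7 beside 19.9%, and the 7 higher at day 15 beside 18.9%. At day 3, 1 of them was higher at an unadjusted p under 0.05 with limma. LDB1, the cofactor that binds LIM homeobox proteins, stood at 78.4 FPKM in the labelled knockout against 56.85 FPKM in wild type at day 7 and rose by 0.46, and at day 15 it rose by 0.61. TBX20, a cardiac T-box factor, fell at day 7 by 1.48 (10.3 FPKM in the labelled knockout, 30.3 FPKM in wild type). Second heart field genes, 10 tested of 12 fixed, had 5 lower and 0 higher at days 3 and 7 alike, and 3 higher and 1 lower at day 15 (medians of -0.79, -0.80 and 0.13, beside the same all-gene medians and shares). WNT11 fell at day 7 by 3.38 (2.95 FPKM in the labelled knockout, 38.8 FPKM in wild type). FOXC1, a forkhead factor, fell at day 3 by 1.24 and rose at day 15 by 1.82 (10.4 FPKM in the labelled knockout, 2.21 FPKM in wild type). The 1 member lower at day 15 was FGF10, a growth factor of the second heart field (8.65 FPKM in the labelled knockout, 15.2 FPKM in wild type), a call lost without either wild-type library or without replicate 1 of the labelled knockout (adjusted p up to 0.0816 over the alternatives). For the counts of 0, an unadjusted p under 0.05 with limma was reached upward by 1 second heart field gene at day 3 and 0 at day 7.

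Chamber genes that TBX3 is known to repress in mouse were 5 tested of 8 fixed, with 1 lower at day 3, 3 lower and 1 higher at day 7, and 2 lower and 1 higher at day 15 (medians of -0.38, -0.88 and 0.13, against -0.01, 0.06 and 0.03 over all genes). The lower counts stand beside 14.1%, 19.9% and 16.2% of all genes at days 3, 7 and 15, and the 1 higher at days 7 and 15 beside 22.1% and 18.9%, so 1 of 5 is near the background. NPPA, the atrial natriuretic peptide, fell by 4.51 at day 7 (2.49 FPKM in the labelled knockout, 78.0 FPKM in wild type) and its change at day 15 was -2.004 (39.9 FPKM in the labelled knockout, 164 FPKM in wild type). CKM, muscle creatine kinase, fell by 4.04 at day 7 and fell by 1.94 at day 15. Both were thus lower in the same libraries as TBX3. GJA1, connexin 43, stood at 212 FPKM in the labelled knockout against 282 FPKM in wild type at day 7 and at 124 FPKM in the labelled knockout against 113 FPKM in wild type at day 15, where its change did not pass.

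For each member the genes of nearest profile were sought among 12581 genes whose mean reached 5 FPKM in 1 group or more, by the root mean square difference of log2(FPKM + 1) over the 12 libraries, each gene centred on its own mean. ISL1 lay nearest to FGF10 (0.38), BAMBI, a pseudoreceptor that dampens BMP and TGF-beta signals (0.40), and LCP1 (0.41), with a spread of ISL1 about its own mean of 1.60. TBX3 lay nearest to KRT18, a simple-epithelial keratin (0.17), TMEM141 (0.19) and GATA4, a cardiac and endodermal zinc finger factor (0.20), with a spread of its own of 0.98. GATA4 stood at 10.9 FPKM in the labelled knockout against 37.0 FPKM in wild type at day 3, at 41.7 FPKM in the labelled knockout against 94.4 FPKM in wild type at day 7 and at 50.6 FPKM in the labelled knockout against 102 FPKM in wild type at day 15. HCN4 lay nearest to INHA, the inhibin alpha subunit (0.25), AHNAK2 (0.26) and SPNS2, a sphingosine-1-phosphate transporter (0.27), with a spread of its own of 0.89. AHNAK2 too was lower in the labelled knockout at day 7 (1.34 FPKM in the labelled knockout, 5.27 FPKM in wild type) and higher at day 15 (14.9 FPKM in the labelled knockout, 6.71 FPKM in wild type). So was INHA (0.478 and 2.57 FPKM at day 7, 6.82 and 4.53 FPKM at day 15, labelled knockout first), but not at day 3 (0.693 and 0.753 FPKM). SPNS2 was not higher in the labelled knockout at day 15 (5.76 FPKM, against 6.46 FPKM in wild type). CACNA1G lay nearest to RNF165 (0.26), GRAMD1B (0.30) and PCDHGB6 (0.30), and RNF165 stood at 10.8 FPKM in the labelled knockout against 0.916 FPKM in wild type at day 15. Among the nearest genes of CACNA1H were ZMYM3 (0.14) and IQSEC1 (0.16). Between the members themselves the differences were larger, 0.69 between CACNA1G and CACNA1H, 0.73 between ISL1 and TBX3 and 0.95 or more in the other 8 pairs, so none of the 5 was the nearest gene of another. The likeness is a description over libraries that share groups and depth.

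**Figure D5:**
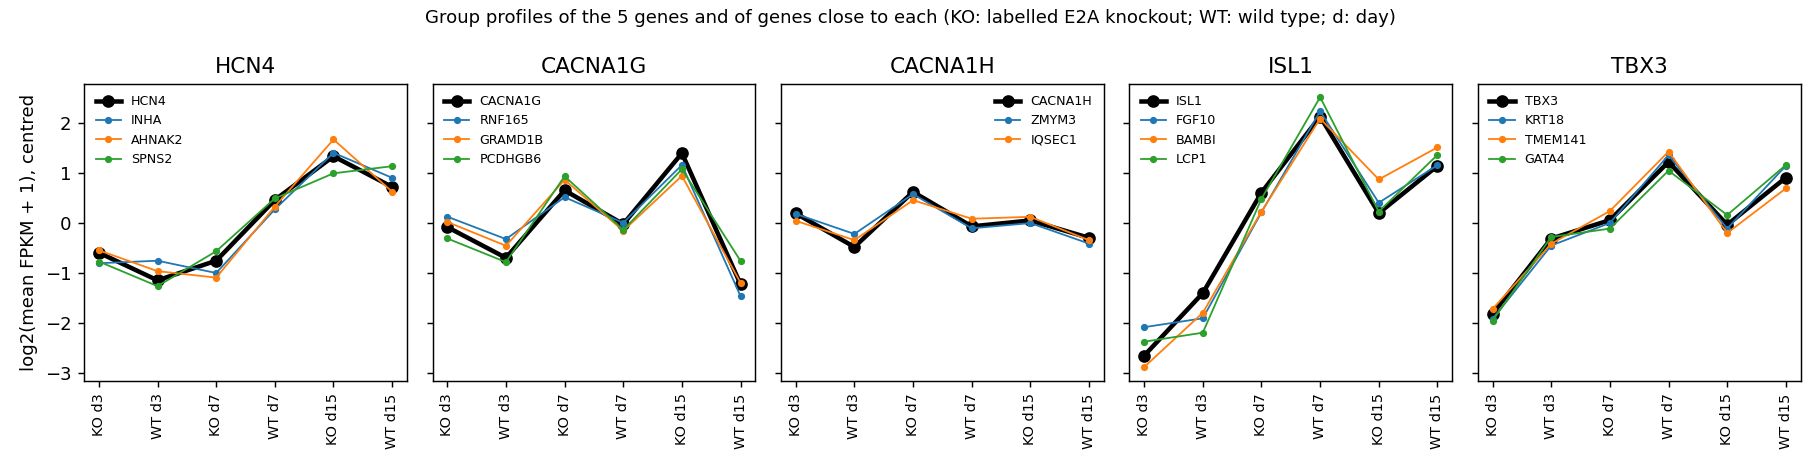
Log2(mean FPKM + 1) in the 6 groups, centred on the mean of each gene's 6 values, for each member (black) and the genes near it that are named in the text (colours), labelled E2A knockout (KO) left of wild type (WT) at each day (d). The HCN4 panel climbs late in KO, the CACNA1G panel drops at day 15 in WT, and the panels of ISL1 and TBX3 peak in WT at day 7.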

How the data were processed

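RNA sequencing values of 12 H7 libraries were read from one deposited table per sample, each with gene symbols and 1 value per gene. The unit is named in neither labels nor headers. The deposited values were taken as FPKM, as sums (577716 to 734958 per library) differ between libraries. Full TPM sums would not differ, but TPM sums over a partial list of genes could, so the sums do not settle the unit. The mapped depth is not stated. A depth was fitted per library to bring low values near whole fragments, and 57.5% to 75.0% of them then lay within 0.1. The depth was chosen for this closeness and no share by chance was counted, so it was not used. No count model, interval or floor is given. Reads were aligned with BWA to hg38/GRCh38, per the submitters' processing notes. No source used here names the quantifier, annotation or strand setting. All 17096 listed genes are above 0 in every library.

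The change was log2(FPKM + 1), labelled knockout minus wild type, in limma 3.58.1 (R 4.3.3) with trend over 6 group means and all 12 libraries, on 16295 genes with at least 1 FPKM in 2 libraries, two-sided, Benjamini-Hochberg over all of them, threshold 0.05. The script was tested on simulated data. Alternatives were another scaling, filter, pseudocount or prior, only the groups compared, the replicate number as a block, and leaving out each library. Group levels, shares and likeness have no test. The named genes are the 5 members, TCF3, members of the lists and marker sets, up to 4 per list and comparison by smallest adjusted p, any measured node or family gene, and the 3 nearest profiles; a few genes that this rule names are not reported here. Members and lists were chosen with earlier results of these data known. Gene positions are from GENCODE 29, which held 88.2% of the symbols. Same-numbered replicates of different groups deviated with correlations of -0.12 to 0.21, and the numbers were not taken as pairs. Between labelled knockout groups these correlations were 0.10 to 0.21, and between wild-type groups -0.03 to 0.02. A link between same-numbered libraries of the labelled knockout was not tested.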

Additional observations from a re-analysis of the deposited data

Results flagged for a closer look

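The genotype effect on 3 members differed between days, by a test of the difference itself with limma, adjusted over all genes. For HCN4 the effect at day 7 minus that at day 3 was -1.77 (adjusted p = 7.09e-04), and the effect at day 15 minus that at day 7 was 1.83 (adjusted p = 3.68e-04). All 4 libraries of days 3 and 15 labelled knockout lie above wild type of their day and both of day 7 lie below. For CACNA1G the effect at day 15 minus that at day 7 was 1.96 (adjusted p = 6.26e-04), with both labelled knockout libraries above wild type at each day. For ISL1 the same difference was 0.58 (adjusted p = 0.0258), a call lost without any 1 of 5 libraries, as given above. No group has enough libraries for a test of single outlying values.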

How the results depend on the processing

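No genotype change of a member at any day turned direction under any alternative. Of the members' changes under alternatives, 551 kept direction and side of the threshold, 53 lost the call, 9 gained it and 12 turned direction. Those 12 were all uncalled: TBX3 between days 7 and 15 in the labelled knockout (-0.27 to 0.081 without a library, including 0.062) and the day 7 minus day 3 genotype effects of CACNA1G (-0.022 with median-ratio scaling, -0.15 at a pseudocount of 0.1, -0.14 to 0.23 without a library), CACNA1H (-0.071 with median-ratio scaling, -0.094 with equal sums, -0.058 to 0.091 without a library) and ISL1 (0.058 at a pseudocount of 0.1). Fits on only the groups compared gave 3 members at day 3 (5 in the main analysis), 1 member and 2084 genes for the later step in the labelled knockout (4 and 4628) and 3657 genes at day 15 (5723). Leaving out 1 library gave 2 to 3 members and 1990 to 2503 genes at day 3 (5 and 3849), 4498 to 5241 genes at day 7 (6852), 3803 to 5524 genes at day 15 (5723), 3 members for days 3 to 7 in wild type in each case (5), 2947 to 3284 genes for days 3 to 7 in the labelled knockout (4668), 1 to 3 members and 2902 to 4897 genes for days 7 to 15 there, and 1920 to 2558 genes for the day 7 minus day 3 genotype effect (3285), with the lone library assumed to vary like the other groups. The replicate number as a block changed 1 member call, CACNA1H between days 3 and 7 in wild type (0.41, adjusted p = 0.0527 with limma). The labels do not say whether the numbers are pairs. With equal sums the median change of all genes was 0.10 at day 3 and 0.21 at day 15 (-0.01 and 0.03 in the main analysis), and with sums over genes not mitochondrially encoded it was 0.12 at day 3 and 0.22 at day 7 (0.06 in the main analysis). The share of called genes that were higher was 58.8% and 74.1% with equal sums at days 3 and 15, and 62.3% and 68.2% with the other sums at days 3 and 7, beside 40.3%, 52.6% and 53.8% at days 3, 7 and 15 in the main analysis. The causes were not tested. The depth is unknown, and the rises of HCN4 and CACNA1G at day 3 passed only with all 4 libraries of that day.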

Other observations

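The median change of the endothelial markers changed sides between days 7 and 15, as HCN4 did, and the part of these markers in its levels was not tested. The medians of the node, second heart field, chamber, and LIM homeobox and T-box lists did so too, and those of the cardiomyocyte and endoderm markers did not. KDR kept its side, at 48.0 FPKM in the labelled knockout against 71.4 FPKM in wild type at day 7. At day 15 KDR stood at 48.3 FPKM in the labelled knockout against 65.9 FPKM in wild type. Of 6 endothelial markers, 5 were lower at day 7 and 0 higher (median change -0.87, adjusted p under 0.05 with limma), and at day 15, 3 were higher and 1 lower (median 0.92). Their sums were 90.6 and 81.6 FPKM in the labelled knockout against 158 and 149 FPKM in wild type at day 7, and 99.998 and 84.98 FPKM in the labelled knockout against 88.0 and 88.9 FPKM in wild type at day 15, where the genotypes overlap. The 4 measured pluripotency markers summed to 425 and 378 FPKM in the labelled knockout against 113 and 131 FPKM in wild type at day 15, with 1 higher and 1 lower and a median change of 0.095. The gap lay in LIN28A, at 349 FPKM in the labelled knockout against 62.5 FPKM in wild type, while POU5F1 stood at 33.3 FPKM in the labelled knockout against 30.05 FPKM in wild type and TDGF1 fell to 1.89 FPKM in the labelled knockout, against 12.7 FPKM in wild type. Of 5 tested neural markers, 2 were higher and 2 lower at day 3, 3 higher and 1 lower at day 7, and 1 higher and 1 lower at day 15. Of 2 tested epicardial and fibroblast markers, 1 was lower at day 3, 1 at day 7 and 0 at day 15, also at an unadjusted p under 0.05. Beside the counts of all these marker sets, 9.51%, 22.1% and 18.9% of all genes were higher at days 3, 7 and 15. The shares lower were 14.1%, 19.9% and 16.2%.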
